A study of Mus musculus with 6 samples.

Results

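The SNARE and granule exocytosis machinery is the set of proteins that docks a secretory granule at the plasma membrane and fuses the membranes. It was followed here at the RNA level through a list of 48 gene names, covering SNARE proteins, their regulators, the Rab3 and Rab27 GTPases and the proteins that bind these GTPases. Complexins and synaptotagmins were not in the list. Of the 48 names, 47 matched 1 gene each among the 55421 gene IDs of the tables (GRCm38 with GENCODE M21), and 46 had enough counts to be tested. The name Piclo matched no gene symbol and gave no value.

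The groups compared were pancreatic islets stimulated with the ligand insB:9-23 (3 libraries) and islets given vehicle (3 libraries), all from C57BL/6 mice of wild-type genotype. The name insB:9-23 is that of a fragment of the insulin B chain. The sources used here do not settle whether mice or isolated islets were treated, and give no dose, duration or age. They also do not tie a library to an animal or a pool. Each p-value therefore rests on library-to-library spread, part or all of which may be technical.

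Total counts lay between 52052808 and 58880189 per library. The libraries held islet RNA mixed with exocrine RNA: 10 beta cell markers took 9.47% to 13.7% of all counts, and 22 acinar cell markers took 14.5% to 24.1%. Mafa, a beta cell transcription factor gene with a single exon, had 0 counts in every library. Of 17016 genes tested, 14 passed the edgeR test at an adjusted p below 0.05, which is 0.0823%. Values are in CPM, counts brought to a common library size with TMM, a scaling that assumes most genes do not differ. The TMM factor was 0.806 for insB:9-23 replicate 3 and 1.00 to 1.08 for the other libraries. CPM values of that replicate are thus higher than library totals alone would give. Means are given ± SD over the 3 libraries of a group, and log2 fold changes of insB:9-23 over vehicle ± SE. In bulk RNA, fewer cells of a type and less RNA per cell cannot be told apart.

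As background, a granule fuses when its R-SNARE, a VAMP protein, zips together with a syntaxin and a SNAP25-type protein of the plasma membrane. Munc18 proteins guide the syntaxin into this complex, tomosyns occupy it in place of VAMP, and NSF with its SNAP adaptors takes it apart after use. Rab3 and Rab27 on the granule recruit effectors such as granuphilin that hold the granule at the membrane. In beta cells this machinery releases insulin, and in the neighbouring acinar cells a related set of paralogs releases digestive enzymes.

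Most of these genes belong to families of close paralogs, so it was asked first whether short reads could tell them apart. The most similar coding stretch of 90 bases is shown for 3 pairs in which one paralog is known from neuroendocrine granules and the other is found more widely or on zymogen granules. Capitals mark the bases that differ between the paralogs of a pair.

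Vamp2 and Vamp3, the R-SNAREs synaptobrevin 2 and cellubrevin, matched at 77 of 90 bases (85.6%), with a longest identical run of 17 bases. The stretch of Vamp2 lies at chr11:69089773-69089862 on the plus strand and that of Vamp3 at chr4:151050944-151051033 on the minus strand.
Vamp2: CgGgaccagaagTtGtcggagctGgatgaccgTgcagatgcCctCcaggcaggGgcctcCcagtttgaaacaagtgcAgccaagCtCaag
Vamp3: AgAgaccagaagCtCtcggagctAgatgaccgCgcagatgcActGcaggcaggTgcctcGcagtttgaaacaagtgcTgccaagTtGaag

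Snap25 and Snap23, the neuroendocrine and the widely expressed plasma membrane SNARE, matched at 76 of 90 bases (84.4%), with a longest identical run of 13 bases. Both are on the plus strand of chromosome 2, and their stretches cross an intron each (first and last base 136763602 and 136770126 for Snap25, 120585585 and 120586228 for Snap23).
Snap25: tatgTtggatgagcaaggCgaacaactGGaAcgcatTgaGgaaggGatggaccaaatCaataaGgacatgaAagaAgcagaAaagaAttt
Snap23: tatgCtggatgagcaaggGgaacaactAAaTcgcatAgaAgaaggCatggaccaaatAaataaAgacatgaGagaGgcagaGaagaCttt

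Rab3a and Rab3d, the GTPases of neuroendocrine and of zymogen granules, matched at 78 of 90 bases (86.7%), with a longest identical run of 23 bases. The stretch of Rab3a runs from 70756003 to 70756455 on the plus strand of chromosome 8 and that of Rab3d from 21914973 to 21915785 on the minus strand of chromosome 9.
Rab3a: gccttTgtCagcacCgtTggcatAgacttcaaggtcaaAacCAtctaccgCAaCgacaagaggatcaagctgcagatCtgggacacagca
Rab3d: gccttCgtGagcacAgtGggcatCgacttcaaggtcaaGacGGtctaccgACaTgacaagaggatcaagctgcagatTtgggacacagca

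Words of 50 bases were then compared across all GENCODE transcripts of the members. The only ones that members shared with each other on the same strand were 3 words common to Stx6 and Snap25. Sharing between members on opposite strands was not counted. On the same strand, sharing with other genes was highest for Stxbp3, at 9.27% of its words, with the pseudogene Stxbp3-ps. On the opposite strand it was highest for Erc1, at 10.65%. Exons on the opposite strand overlapped 11.8% of the exon length of Erc1, 11.6% of Snap47 and 9.00% of Rab3b. The strand setting of the counting is not given in the sources used here, so counts of these genes could include reads of their antisense neighbours.

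Vamp7, an R-SNARE of endosomes and lysosomes, had 0 counts in every library. It lies on the scaffold GL456233.1 and not on a chromosome of the assembly. All 86 genes on such scaffolds had 0 counts, so this value says nothing about the level of Vamp7.

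Levels were compared between genes only per kb of merged exon length, and they spanned a wide range. The granule docking gene Sytl4 was highest, at 55.1 ± 1.38 CPM per kb in insB:9-23 islets and 62.3 ± 2.52 CPM per kb in vehicle islets. Next came Napa, encoding the NSF adaptor alpha-SNAP, at 48.5 ± 3.15 and 45.9 ± 8.39 CPM per kb, and Vamp2, at 30.4 ± 1.41 and 33.8 ± 2.99 CPM per kb, in the same order of groups. The lowest was Rims1, an active zone scaffold, at 0.118 ± 0.0277 CPM per kb in insB:9-23 islets and 0.118 ± 0.0372 CPM per kb in vehicle islets. Its paralog Rims2, the form that binds Epac2 in beta cells, was at 3.44 ± 0.213 CPM per kb in insB:9-23 islets and 3.58 ± 0.0602 CPM per kb in vehicle islets. Merged exons overstate the length of genes with several isoforms. Per kb of the transcript with the longest coding sequence, an alternative chosen after seeing the data, Vamp2 was first at 109.8 CPM per kb over all 6 libraries, followed by Sytl4 at 80.2 and Napa at 71.0.

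**Figure D1:**
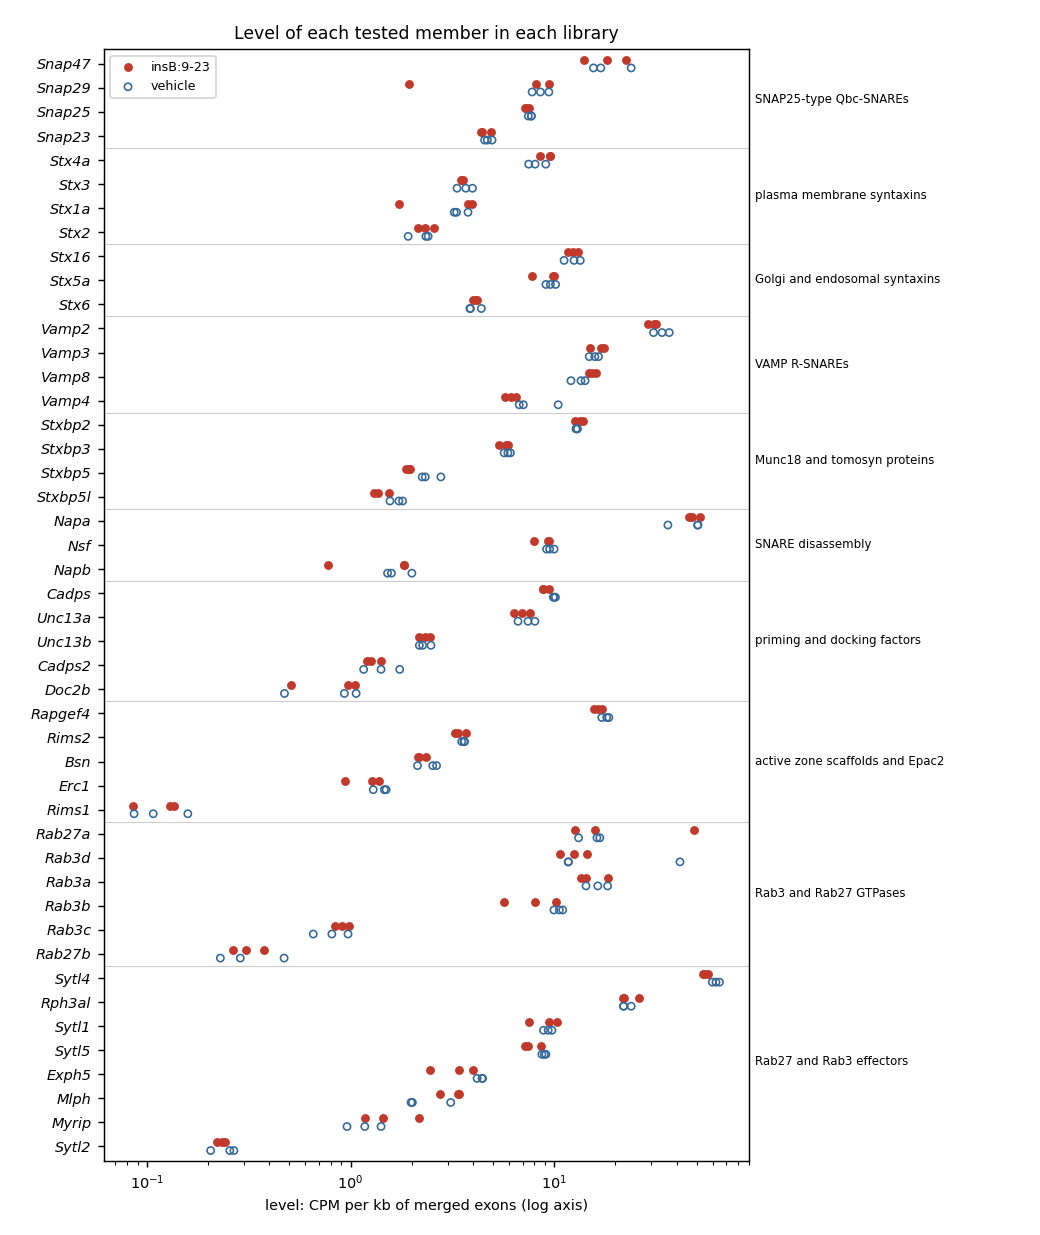
Level of the 46 tested members in each library, in CPM per kb of merged exons on a log axis, with insB:9-23 libraries as filled red points and vehicle libraries as open blue points, grouped by role. Sytl4, Napa and Vamp2 lie farthest right, Rims1 lies farthest left, and single points far from the other 5 are seen for Snap29, Rab27a and Rab3d.

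Between the groups, none of the 46 tested members passed the edgeR test, whose smallest adjusted p among them was 0.88. The count was 0 as well by DESeq2 (smallest adjusted p 0.34) and by limma-voom (0.80). At an unadjusted p below 0.05 edgeR found 3 members, which is 6.52% of the 46, against 5.55% of all genes tested. DESeq2 found 3, against 6.59% of all genes, and limma-voom 4, against 6.14%. The 3 by edgeR were Stxbp5, Sytl4 and Cadps, all with a log2 fold change below 0. Among all genes 2.81% were lower and 2.74% higher at that p. The median log2 fold change was -0.06 over the members and 0.01 over all genes tested. It was below 0 in 32 of the 46 members (69.6%), against 48.5% of all genes. By library totals alone the median over all genes was -0.15, that over the members -0.21, and 40 of the 46 members were below 0.

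The members were measured more tightly than most genes. Their median SE was 0.12 on the log2 scale, against 0.23 over all genes tested. A mean of at least 5 CPM was reached by 42 of the 46 members, against 10277 of the 17016 genes. The part of level in the SE was not tested. The 95% interval of the fold change lay within a 2-fold difference in either direction for 40 of the 46 members, against 10040 of 17016 genes. Intervals that reached further belonged to Snap29, Rab27a, Rab3d, Napb, Doc2b and Myrip.

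**Figure D2:**
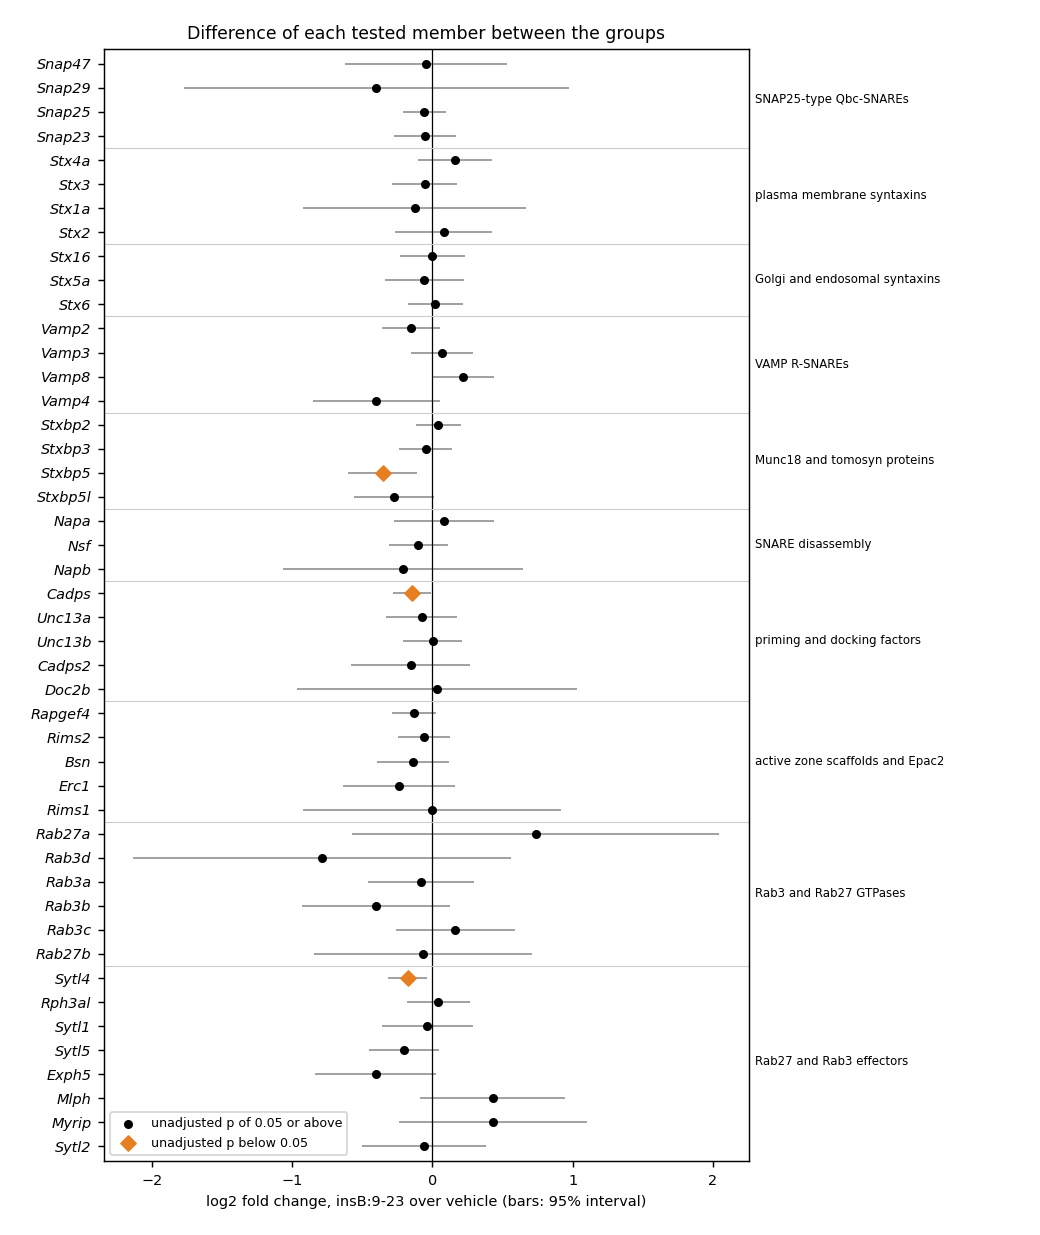
Log2 fold change of insB:9-23 over vehicle for each tested member, with its 95% interval as a horizontal bar, grouped by role. Orange diamonds mark Stxbp5, Sytl4 and Cadps, which had an unadjusted edgeR p below 0.05, and all 3 lie left of 0. The widest bars are those of Rab3d, Rab27a and Snap29.

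Among the SNAP25-type SNAREs, which contribute a pair of helices to the complex, Snap25 was the steadiest. It had 49.1, 51.1 and 49.4 CPM in insB:9-23 islets, against 52.5, 52.4 and 50.7 CPM in vehicle islets. The groups overlapped narrowly, and the log2 fold change was -0.06 ± 0.06 with a 95% interval of -0.21 to 0.09. Snap47, a SNARE less tied to the plasma membrane, had 37.1, 59.5 and 48.4 CPM in insB:9-23 islets, against 44.9, 41.3 and 63.3 CPM in vehicle islets. Its means of 48.3 ± 11.2 and 49.9 ± 11.8 CPM differed by less than the spread within each group. Snap29, a SNARE of internal membranes, had 28.1, 32.7 and 6.64 CPM in insB:9-23 islets, against 26.9, 29.5 and 32.5 CPM in vehicle islets. Replicate 3 of insB:9-23 thus stood alone, 4.05 times below the next lowest library. The log2 fold change of Snap29 was -0.40 ± 0.55 with that library and 0.04 ± 0.13 without it. Snap23, the widely expressed counterpart of Snap25, averaged 19.6 ± 1.29 CPM in insB:9-23 islets and 20.3 ± 0.868 CPM in vehicle islets.

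The log2 fold changes of the 4 plasma membrane syntaxins lay between -0.13 and 0.16. Stx4a, a partner of insulin granule fusion, had 22.5, 22.5 and 20.2 CPM in insB:9-23 islets, against 21.5, 17.7 and 19.1 CPM in vehicle islets. Stx3, a syntaxin of apical and granule membranes, had 20.2, 19.95 and 20.3 CPM in insB:9-23 islets, against 22.7, 21.03 and 19.0 CPM in vehicle islets. For both genes the groups overlapped. Stx1a, the neuroendocrine syntaxin, had 10.02, 10.6 and 4.59 CPM in insB:9-23 islets, against 8.61, 10.1 and 8.84 CPM in vehicle islets, so that the low value was again in insB:9-23 replicate 3. Stx2, a further plasma membrane syntaxin, had a log2 fold change of 0.08 ± 0.14.

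The syntaxins of the Golgi and endosomes, Stx5a, Stx6 and Stx16, had log2 fold changes between -0.06 and 0.02. Stx16, which acts at the trans-Golgi network, had 51.9, 46.2 and 48.9 CPM in insB:9-23 islets, against 49.6, 53.2 and 44.3 CPM in vehicle islets. Stx5a, which acts between the endoplasmic reticulum and the Golgi, had 57.5, 58.2 and 45.4 CPM in insB:9-23 islets, against 52.9, 55.7 and 59.0 CPM in vehicle islets. Both genes had overlapping groups.

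Of the VAMP proteins, Vamp2, the main R-SNARE of insulin granules, had 118, 110 and 120 CPM in insB:9-23 islets, against 117, 140 and 129 CPM in vehicle islets. Its log2 fold change of -0.15 ± 0.08 did not pass (edgeR adjusted p = 0.88). Vamp3, which serves recycling endosomes, had 49.0, 50.9 and 43.1 CPM in insB:9-23 islets, against 47.7, 42.9 and 45.8 CPM in vehicle islets. Another pair of VAMP genes had groups that did not overlap, in opposite directions. Vamp8, an R-SNARE of zymogen granules and endosomes, had 34.3, 37.1 and 35.6 CPM in insB:9-23 islets, against 31.3, 27.9 and 32.8 CPM in vehicle islets. Its log2 fold change was 0.22 ± 0.09 (edgeR adjusted p = 0.88). Vamp4, of the trans-Golgi network, had 28.1, 29.7 and 26.2 CPM in insB:9-23 islets, against 47.8, 32.2 and 30.7 CPM in vehicle islets. Vehicle replicate 1 was the high one, and the log2 fold change was -0.40 ± 0.18 (edgeR adjusted p = 0.88).

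The tomosyns, soluble R-SNARE homologues that hold back fusion, were both lower in every insB:9-23 library than in every vehicle library. Stxbp5 (tomosyn-1; chromosome 10, 9755547 to 9901079) had 31.8, 30.8 and 32.3 CPM in insB:9-23 islets, against 38.4, 45.9 and 37.1 CPM in vehicle islets. Stxbp5 had a log2 fold change of -0.36 ± 0.10, with a 95% interval of -0.60 to -0.11, an unadjusted edgeR p of 0.013 and an adjusted p of 0.88. Its unadjusted p was below 0.05 with the settings used here and in each of the 14 alternatives, while its smallest adjusted p was 0.34, by DESeq2. Stxbp5l (tomosyn-2; chromosome 16, 37114942 to 37384962) had 11.1, 13.2 and 11.6 CPM in insB:9-23 islets, against 15.4, 13.3 and 14.7 CPM in vehicle islets. The gap between the groups was narrow, and the log2 fold change was -0.28 ± 0.12 (edgeR adjusted p = 0.88). The Munc18 proteins of the list, Stxbp2 and Stxbp3, chaperone non-neuronal syntaxins. Stxbp2 had 55.8, 52.5 and 57.6 CPM in insB:9-23 islets, against 53.8, 53.2 and 54.1 CPM in vehicle islets. Stxbp3 had 28.8, 31.8 and 30.9 CPM in insB:9-23 islets, against 31.6, 30.3 and 32.6 CPM in vehicle islets. Both had overlapping groups, with log2 fold changes of 0.04 ± 0.07 and -0.05 ± 0.08.

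The genes that take SNARE complexes apart had overlapping groups. Napa had 180, 197 and 174 CPM in insB:9-23 islets, against 191, 137 and 192 CPM in vehicle islets. Nsf, the ATPase itself, had 77.5, 79.0 and 66.8 CPM in insB:9-23 islets, against 79.3, 76.6 and 83.4 CPM in vehicle islets. The lowest library was vehicle replicate 2 for Napa, 1.27 times below the next, and insB:9-23 replicate 3 for Nsf, 1.15 times below the next. Napb, the neuronal beta-SNAP, was lowest in insB:9-23 replicate 2, at 5.48 CPM, and lay between 10.7 and 14.1 CPM in the other 5 libraries.

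Among priming factors, Cadps (CAPS1, which prepares dense-core granules for fusion; chromosome 14, 12372563 to 12823079) had groups that did not overlap. It had 142, 133 and 133 CPM in insB:9-23 islets, against 153, 150 and 149 CPM in vehicle islets. Cadps had a log2 fold change of -0.15 ± 0.06, with an unadjusted edgeR p of 0.038 and an adjusted p of 0.88. The unadjusted p stayed below 0.05 in 6 of the 14 alternatives and reached 0.13. Unc13a (Munc13-1), a syntaxin-opening priming protein, had 96.4, 80.5 and 87.8 CPM in insB:9-23 islets, against 93.9, 101 and 83.9 CPM in vehicle islets, with overlapping groups. Its paralog Unc13b averaged 52.5 CPM in each group. Doc2b, a calcium-binding partner of syntaxin, averaged 3.68 ± 1.27 CPM in insB:9-23 islets and 3.59 ± 1.35 CPM in vehicle islets, and its log2 fold change of 0.04 ± 0.41 was among the least precise. Cadps2, the paralog of Cadps, had a log2 fold change of -0.15 ± 0.17.

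All 5 tested members of the scaffold group had a log2 fold change below 0, between -0.24 (Erc1) and -0.003 (Rims1), and none passed the test. Rapgef4, encoding the cAMP sensor Epac2 that amplifies insulin release, had 115, 105 and 109 CPM in insB:9-23 islets, against 124, 121 and 114 CPM in vehicle islets. The highest insB:9-23 library stood just above the lowest vehicle library, and the log2 fold change was -0.13 ± 0.06. Rims2 had 38.2, 35.0 and 33.9 CPM in insB:9-23 islets, against 37.4, 36.5 and 37.7 CPM in vehicle islets, with overlapping groups. Bsn (bassoon), a large scaffold of the active zone, had a log2 fold change of -0.14 ± 0.10.

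Pclo, encoding the scaffold piccolo, may be the gene the unmatched name stood for, but it was not counted as a member. It had 213, 194 and 202 CPM in insB:9-23 islets, against 255, 274 and 235 CPM in vehicle islets. The values of Pclo did not overlap between groups. Pclo had a log2 fold change of -0.33 ± 0.08, with an unadjusted edgeR p of 0.0053 and an adjusted p of 0.83.

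The granule GTPases held the members with the largest log2 fold changes in either direction, and 1 library set each of them. Rab27a, the GTPase that carries granuphilin (chromosome 9, 73044854 to 73097629), had 49.1, 188 and 61.3 CPM in insB:9-23 islets, against 65.0, 62.9 and 51.1 CPM in vehicle islets. Replicate 2 of insB:9-23 was 2.89 times above the next library. The log2 fold change was 0.74 ± 0.53 with it and -0.11 ± 0.16 without it. That library also held more immune marker RNA. Its 12 T, NK, B and plasma cell markers summed to 72.7 CPM, against 7.89 to 14.5 CPM in the other 5 libraries, and its 7 macrophage and dendritic cell markers to 104.9 CPM, against 32.8 to 49.5 CPM. The part of these cells in the Rab27a value was not tested. No marker of either list was at 0 in all libraries.

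Rab3d, a GTPase of zymogen granules (chromosome 9, 21907491 to 21918192), had 44.7, 60.9 and 52.6 CPM in insB:9-23 islets, against 174, 49.1 and 49.3 CPM in vehicle islets. Vehicle replicate 1 was 2.86 times above the next library, and it was the library with the lowest acinar marker share. The log2 fold change of Rab3d was -0.79 ± 0.54 with it and 0.10 ± 0.15 without it. With all libraries and the acinar marker level as a further term in the fit, the log2 fold change was -0.48 ± 0.78. The part of acinar cells in the Rab3d value was not tested. Rab3a, the neuroendocrine form, had 41.1, 32.0 and 30.0 CPM in insB:9-23 islets, against 40.7, 36.5 and 31.9 CPM in vehicle islets, with fully overlapping groups. Rab3b, another neuroendocrine form, had 19.9, 36.1 and 28.2 CPM in insB:9-23 islets, against 35.1, 37.4 and 38.8 CPM in vehicle islets, and was lowest in insB:9-23 replicate 1. The log2 fold changes of Rab3c, the remaining Rab3 form, and of Rab27b, the Rab27 form of zymogen granules, were 0.16 ± 0.17 and -0.07 ± 0.32.

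**Figure D3:**
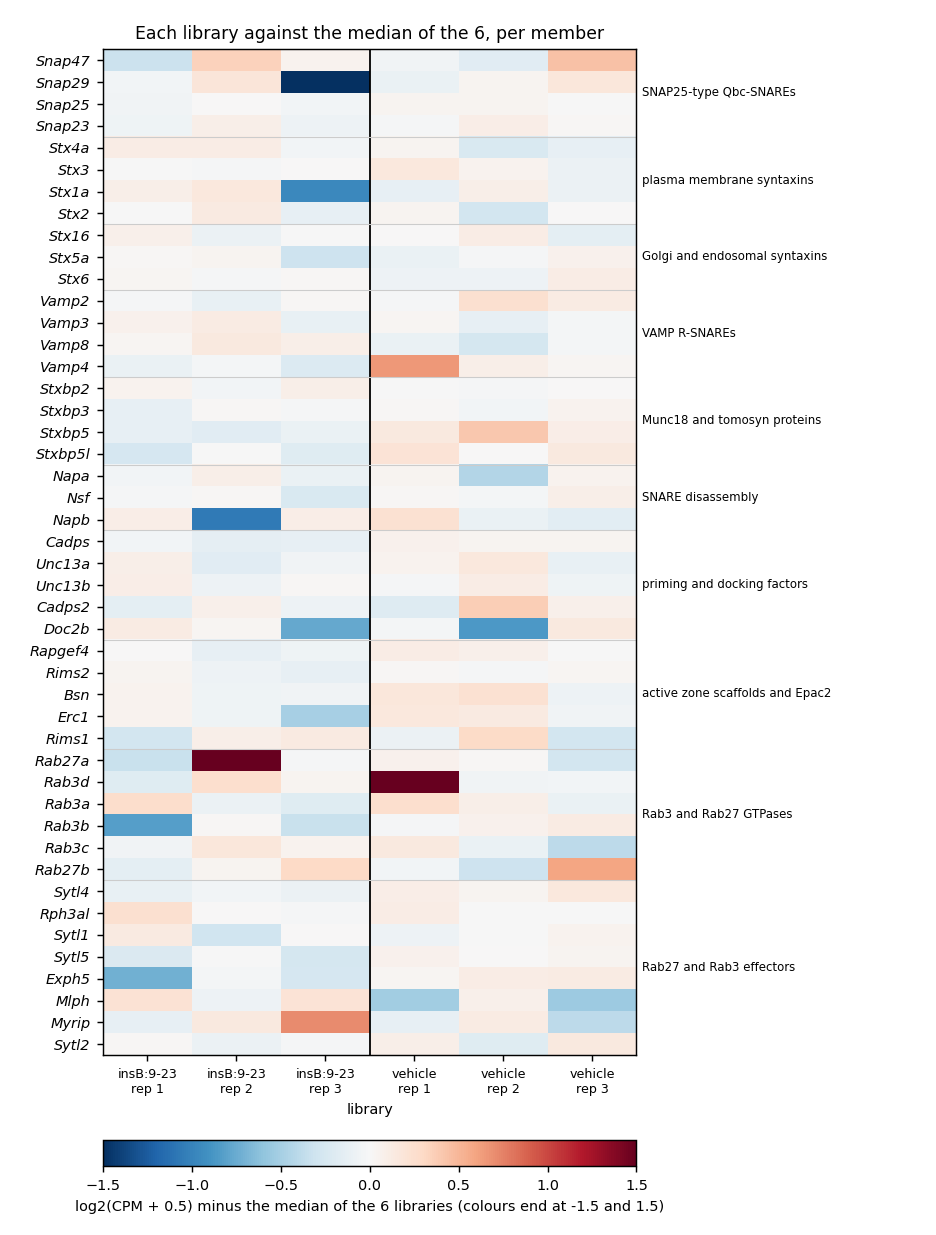
Deviation of each library from the median of the 6, in log2(CPM + 0.5), for each tested member (rows, grouped by role) and library (columns, insB:9-23 left of the black line and vehicle right of it). The darkest cells are Snap29 in insB:9-23 replicate 3, Rab27a in insB:9-23 replicate 2 and Rab3d in vehicle replicate 1, each far from the other 5 libraries of its row.

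Departures of this kind were counted over all genes. Of the 42 members with a mean of at least 5 CPM, 3 (7.14%) had a library at least 2-fold away from the nearest of the others, against 6.02% of 10277 genes at that level. The members were Snap29, Rab27a and Rab3d, and the departures fell in 3 different libraries.

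The effectors include the docking proteins that bind Rab27 and Rab3. Sytl4, encoding granuphilin, which docks insulin granules (chromosome X, 133936385 to 133981812), had 276, 290 and 281 CPM in insB:9-23 islets, against 319, 306 and 332 CPM in vehicle islets. The groups did not overlap, and the spread within each was small. Sytl4 had a log2 fold change of -0.18 ± 0.06, with an unadjusted edgeR p of 0.021 and an adjusted p of 0.88. In 7 of the 14 alternatives the unadjusted p stayed below 0.05, and its highest value was 0.076. Rph3al, encoding Noc2, a Rab3 and Rab27 effector of endocrine granules, had 99.3, 84.2 and 82.8 CPM in insB:9-23 islets, against 91.1, 83.7 and 83.5 CPM in vehicle islets, and its groups overlapped. The Slp family member Sytl5 had 17.1, 19.9 and 16.5 CPM in insB:9-23 islets, against 20.9, 20.03 and 20.6 CPM in vehicle islets, and a log2 fold change of -0.20 ± 0.10. The Slac2 protein gene Exph5 had 26.0, 41.9 and 35.9 CPM in insB:9-23 islets, against 44.0, 46.5 and 46.8 CPM in vehicle islets, and a log2 fold change of -0.40 ± 0.18. Neither passed the test (edgeR adjusted p = 0.88 each). The other Slac2 genes, Mlph and Myrip, had log2 fold changes of 0.43 ± 0.21 and 0.43 ± 0.27, with overlapping groups. Of the remaining Slp genes, Sytl1 had a log2 fold change of -0.04 ± 0.13 and Sytl2 one of -0.06 ± 0.18.

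In all, 8 of the 46 members (17.4%) had groups that did not overlap, against 13.5% of all genes tested. In 7 of them the insB:9-23 libraries were the lower ones, which is 15.2% of the members against 7.12% of all genes. These 7 were Stxbp5, Sytl4, Cadps, Stxbp5l, Exph5, Vamp4 and Sytl5, and the one in the other direction was Vamp8 (6.4% of all genes lay in that direction). With library totals in place of TMM, 11 members did not overlap, all lower in insB:9-23 islets, which is 23.9% of the members. By that scaling 15.3% of all genes did not overlap, and 13.2% of all genes did so with lower values in insB:9-23 islets. None of the 8 found with TMM passed the edgeR test, and their log2 fold changes lay between -0.40 and 0.22.

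**Figure D4:**
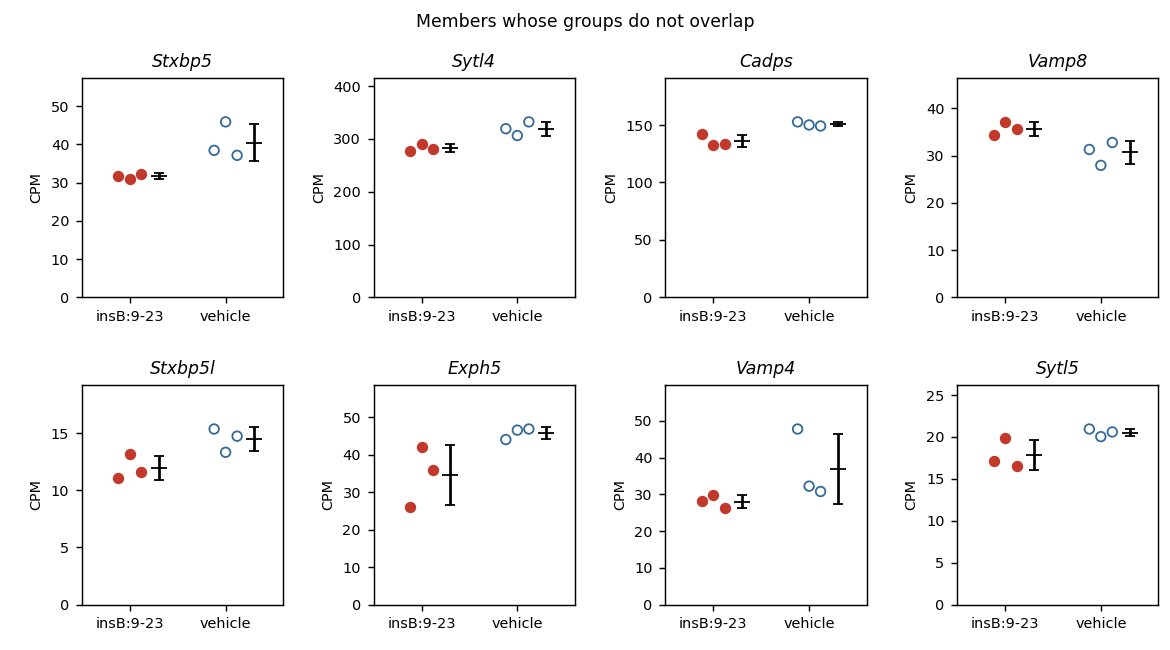
CPM in each library for the 8 members whose groups do not overlap, with insB:9-23 libraries as filled red points and vehicle libraries as open blue points, and the mean ± SD of each group in black. Each vertical axis starts at 0. Vamp8 is the panel with higher insB:9-23 values, and in the other 7 the vehicle values are higher.

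Members known from neurons and endocrine cells were set beside members known from the zymogen granules of acinar cells. The 15 neuroendocrine members summed to 1043, 1002 and 998 CPM in insB:9-23 islets, against 1118, 1112 and 1098 CPM in vehicle islets, so the sums did not overlap. Of the 15, 12 had a log2 fold change below 0, against 48.5% of all genes, with a median of -0.13, and 0 passed the test. The sums include Sytl4, Cadps and Stxbp5l, given above as not overlapping, so they are not a separate result. Sytl4 alone averaged 283 CPM in insB:9-23 islets and 319 CPM in vehicle islets. The 10 beta cell markers summed to 118059, 130914 and 117688 CPM in insB:9-23 islets, against 126015, 113555 and 115574 CPM in vehicle islets, with overlapping groups. Nearly all of this sum was Ins1, Ins2 and Iapp, with means of 38880, 69956 and 11291 CPM in insB:9-23 islets. Slc2a2 came next at 803 CPM, so the sum says little about the other markers. Of the 9 markers tested, 6 were below 0, against 48.5% of all genes, with a median of -0.12. Above 0 were Ins1, Ins2 and Pdx1, with log2 fold changes of 0.01, 0.10 and 0.13. Pdx1 had 137, 130 and 125 CPM in insB:9-23 islets, against 54.3, 157 and 147 CPM in vehicle islets. Its value in vehicle replicate 1 stood alone, 2.30 times below the next lowest library. The glucose transporter gene Slc2a2, the granule zinc transporter gene Slc30a8, G6pc2 and Ucn3 did not overlap between groups, with lower values in insB:9-23 islets. Among all genes 7.12% did not overlap in that direction. Of the other markers below 0, Iapp and Nkx6-1 had overlapping groups, and Nkx6-1 ranged from 31.8 to 322 CPM within the vehicle group. The part of the beta cell share in the neuroendocrine sum was not tested.

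The 7 zymogen granule members were set beside the acinar cell markers. They summed to 203, 214 and 212 CPM in insB:9-23 islets, against 327, 199 and 205 CPM in vehicle islets, and the high value of vehicle replicate 1 came with the Rab3d value given above. Of these 7, 5 had a log2 fold change below 0, against 48.5% of all genes, with a median of -0.05. Of the 22 acinar cell markers, 21 had a log2 fold change above 0, with a median of 0.51. They took 18.0%, 15.8% and 24.1% of counts in insB:9-23 replicates 1 to 3, against 14.5%, 15.8% and 16.9% in vehicle replicates 1 to 3. When the fit carried the acinar marker level as a further term, the log2 fold change was -0.38 ± 0.14 for Stxbp5, -0.17 ± 0.07 for Sytl4 and -0.13 ± 0.07 for Cadps, with unadjusted edgeR p of 0.040, 0.065 and 0.13 (adjusted p = 0.94 each). Duct cell markers lay in the same direction as acinar markers: of 10, 9 had a log2 fold change above 0, with a median of 0.22. The duct markers summed to 634, 597 and 691 CPM in insB:9-23 islets, against 532, 529 and 546 CPM in vehicle islets, without overlap. As a share of all counts they were 0.0635%, 0.0624% and 0.0556% in insB:9-23 islets, against 0.0576%, 0.0561% and 0.0560% in vehicle islets, and these shares overlapped. The part of duct cells in the values of the members was not tested.

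**Figure D5:**
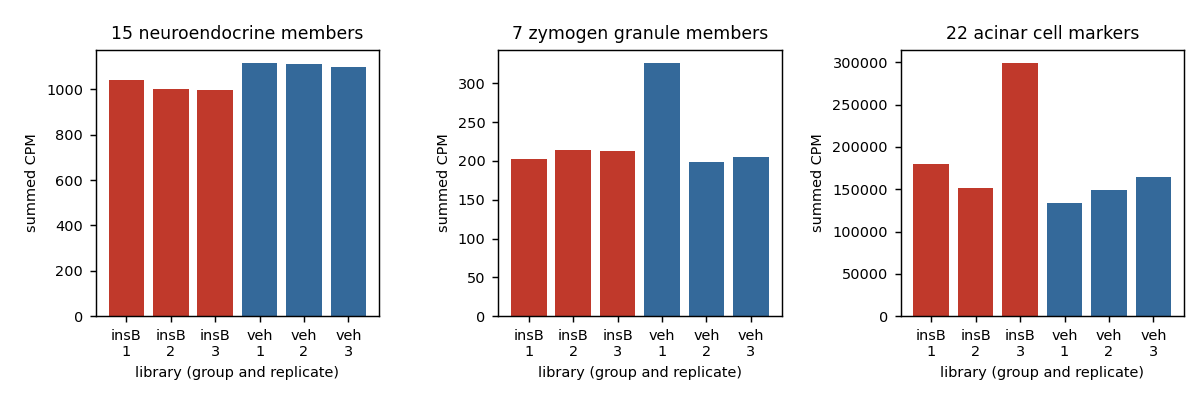
Summed CPM in each library of the 15 neuroendocrine members, the 7 zymogen granule members and the 22 acinar cell markers, with insB:9-23 libraries in red on the left and vehicle libraries in blue on the right. The neuroendocrine sums are 998 to 1043 CPM in insB:9-23 islets and 1098 to 1118 CPM in vehicle islets. The tallest zymogen bar is vehicle replicate 1, and the tallest acinar bar is insB:9-23 replicate 3.

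Other genes of the same pathway were counted from a further list. Of 39 tested genes from a list of 42 further SNARE and fusion genes, 0 passed the edgeR test, and the median log2 fold change was -0.01. At an unadjusted p below 0.05 edgeR found 2 lower, Pclo and Rab3gap2, and 1 higher, Vti1a, against 5.55% of all genes tested. DESeq2 found 2 lower and 2 higher, against 6.59% of all genes. By limma-voom there were 2 lower and 1 higher, against 6.14%, and 0 passed by DESeq2 or limma-voom. Rab3gap2, a subunit of the complex that switches Rab3 off, had 117, 114 and 108 CPM in insB:9-23 islets, against 132, 126 and 132 CPM in vehicle islets. Vti1a, a Golgi and endosomal SNARE, had 6.85, 6.90 and 8.19 CPM in insB:9-23 islets, against 5.52, 5.37 and 5.47 CPM in vehicle islets. The log2 fold changes were -0.20 ± 0.06 and 0.42 ± 0.14 (edgeR adjusted p = 0.88 each). Of 8 tested exocyst subunits, which tether vesicles at the plasma membrane, 0 passed by edgeR, DESeq2 or limma-voom, and Exoc6b had an unadjusted edgeR p of 0.044, with 56.0, 34.2 and 61.7 CPM in insB:9-23 islets against 30.1, 31.1 and 38.3 CPM in vehicle islets.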

How the data were processed

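Each library came as 1 table of raw counts by Ensembl gene ID that the authors deposited, per the file headers. HISAT, featureCounts 1.5.0-p3, DESeq 1.8.3 and GRCm38 are named in the submitters' processing notes, with no role given for any of them. Per the labels' protocols, total RNA was isolated with TRIzol and the library kit (KAPA) is a stranded one. GENCODE M21 gave a symbol to 55240 of the 55421 IDs.

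Groups and replicate numbers follow the sample titles. After filterByExpr and TMM, edgeR 4.0.16 (R 4.3.3) tested 17016 genes by quasi-likelihood, with Benjamini-Hochberg adjustment over all of them. DESeq2 1.42.0 and limma 3.58.1 served as alternatives, beside other scalings, other filters on low counts, an acinar covariate, a replicate block and the omission of each library. Each SE was obtained as the log2 fold change over the square root of F. At these depths 3 counts equal 0.0475 to 0.0655 CPM, a limit that covers counting error only.

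The members, gene lists and tests were chosen with earlier results of these data known. Values by library are given for members with an unadjusted p below 0.05 and for the 2 members of each role with the highest level per length. Other genes given by library, and the counts of groups that do not overlap and of libraries that stand apart, were chosen after their values were seen. In simulated counts for insB:9-23 against vehicle (16415 genes tested, 200 changed), edgeR found 51 of the 100 genes set to a 4-fold change. It also found 11 of the 100 set to a 2-fold change, and 9 of its 71 calls were unchanged genes. The changed genes were drawn at random from all genes that passed the filter. The shares found therefore do not describe the members, whose median SE was 0.12 against 0.23 over all genes tested. DESeq2 made 179 calls on the same counts, of which 67 were unchanged genes. The spreads used for these counts were those fitted by edgeR. Within groups, libraries differed by a chi-square of 80 to 247.1 per degree of freedom. At that distance no within-group pair was a repeat deposit. Pairs across groups were not compared.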

Additional observations from a re-analysis of the deposited data

How the results depend on the processing

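No member passed the test under any of the 14 alternatives tried, and the smallest adjusted p was 0.34 (DESeq2). Members with an unadjusted p below 0.05 numbered 1 to 6 of 46, against 3.56% to 6.59% of all genes tested. Stxbp5 was among them under all 14 alternatives, Sytl4 under 7 and Cadps under 6. The median log2 fold change of the 46 members was -0.21 by library totals alone (all genes -0.15), -0.03 with the acinar covariate (all genes 0.01), and lay between -0.10 (without insB:9-23 replicate 1) and -0.044 (without insB:9-23 replicate 3) when 1 library was left out. Over all genes, calls numbered 116 with DESeq2, 9 with at least 10 counts in every library, 7 with an acinar covariate, and 16 to 26 when 1 library was left out. In the simulated counts 67 of 179 DESeq2 calls and 9 of 71 edgeR calls were unchanged genes. Those counts were drawn with the spreads that edgeR fitted, so these shares need not hold for the deposited counts. With the replicate number as a block, 0 genes were called (605 at an unadjusted edgeR p below 0.05). Same-numbered libraries correlated at -0.03, -0.07 and 0.001 in their deviations from the group means, against -0.04 to 0.07 for unlike numbers. No pairing by number was seen, but deviations from means of 3 libraries cannot exclude a weak one.

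Among the members given by the naming rule, the sign of the log2 fold change turned in 23 cases, all for members whose adjusted p was 0.78 or more under every alternative. By library totals alone these were Vamp3 (-0.073), Stxbp2 (-0.11), Napa (-0.063) and Rph3al (-0.10). With the acinar covariate they were Snap29 (0.22), Stx5a (0.070), Stx16 (0.0029) and Stxbp2 (-0.0069), with at least 10 counts in every library Stx16 (0.0028), and with the replicate block Stx16 (0.0021). Leaving out 1 library at a time gave -0.77 to 0.039 for Snap29, -0.22 to 0.16 for Snap47, -0.12 to 0.0075 for Stx3, -0.12 to 0.054 for Stx5a, -0.069 to 0.062 for Stx16, -0.064 to 0.16 for Napa, -1.08 to 0.097 for Rab3d, -0.11 to 1.07 for Rab27a and -0.042 to 0.095 for Rph3al. Rab27a, Rab3d and Snap29 turned when the library standing apart was left out. For the other members the cause was not tested. In counts chosen after seeing the data, members whose groups did not overlap numbered 10 to 14 (21.7% to 30.4%) with 1 library left out, against 21.7% to 26.5% of all genes. By direction, 7 to 12 of the 46 members were lower in insB:9-23 islets and 2 or 3 were higher. Among all genes 11.1% to 13.4% were lower.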

Other observations

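Exoc8, an exocyst subunit gene with a single exon, had 0 counts in every library, while the other 8 subunits were all counted. Of 1449 protein-coding genes with a single exon, 865 (59.7%) had 0 counts in all 6 libraries, Mafa among them. Of 20527 protein-coding genes with several exons, 3804 (18.5%) did. No cause was tested.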
